A study of Mus musculus with 25 samples.

Results

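REST deletion was examined in cortical neurons of the mouse at day 7 after spinal cord injury (SCI), across every gene of the expression table. The comparison takes 6 of the 25 libraries, 3 from REST cKO neurons (libraries 2, 13 and 26 by the labels) and 3 from wild-type (WT) neurons (libraries 4, 7 and 12), chosen by their labelled genotype, treatment and day. It covers all 9931 genes that the table gives with a symbol. The mice were young C57BL/6 adults that carried REST flx/flx alleles and the reporter STOP flx/flx TdTomato in both groups. WT mice received AAV-Syn-GFP in the sensorimotor cortex, and REST cKO mice received AAV-Syn-Cre, so that Cre under the human synapsin promoter deleted Rest and switched on tdTomato in the neurons that took up the virus. Both groups then had a complete crush of the spinal cord at T10. RNA from pools of sorted cells was read with a 3′ mRNA-seq kit, which counts the ends of polyadenylated transcripts. The other libraries come from sham-operated mice and from earlier days after SCI, in both genotypes.

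REST is a zinc finger protein that binds a long DNA motif, the repressor element RE1, and recruits the CoREST and SIN3 complexes, whose histone deacetylases and the demethylase KDM1A close the chromatin of the bound gene. In cells outside the nervous system it keeps neuronal genes such as those of synaptic vesicles and ion channels silent, and its level falls as neurons mature. In adult neurons it can return after injury, seizure or ischaemia. Corticospinal neurons of layer 5, whose axons a spinal crush severs, have little capacity to regrow those axons.

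The values are log2 normalized expression as the authors deposited them, from -4.82 to 5.16, so that a difference of 1 is a doubling of the linear value. Each difference below is REST cKO minus WT in a limma fit over all 25 libraries with the authors' 2 sequencing components as covariates. Unless another order is given, library values are listed in the order 2, 13 and 26 for REST cKO and 4, 7 and 12 for WT. "Without overlap" means that all 3 REST cKO libraries lay above, or all 3 below, the 3 WT libraries.

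Several facts of these 6 libraries stand beside every result. All 3 WT libraries are labelled female and all 3 REST cKO libraries male, so genotype and sex cannot be told apart. The 4 measured genes of chromosome Y (Ddx3y, Eif2s3y, Kdm5d and Uty) and Xist overlapped between the groups all the same: Xist was at 0.16, 0.71 and 0.27 in REST cKO and at 0.62, 2.44 and 0.26 in WT. Of the X-linked genes that escape inactivation, Eif2s3x was lower without overlap, at 0.32, 0.91 and 0.45 against 1.67, 2.07 and 1.19, and Kdm6a higher, at 1.99, 1.21 and 0.83 against -2.91, -0.27 and -1.06, while Ddx3x and Kdm5c overlapped. The REST cKO libraries come from batches 1, 2 and 3 and the WT libraries from batches 1, 1 and 2. The cells were recognised by GFP in WT and, by the labels, by tdTomato in REST cKO, and the reporter and the deletion cannot be told apart. Spearman correlations between the 6 libraries ran from 0.3795 to 0.5641. Values under -2 made up 2.77% to 10.7% of genes in the REST cKO libraries and 11.1% to 16.98% in WT. In 140 of the 9931 genes the values correlated with a sequencing component that had been removed from all others, and among those 140 genes 37.9% were higher and 16.4% lower without overlap, against 7.6% and 4.21% of the other 9791. Such genes, Rest included, are marked below as correlating with a component.

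The labelled cell type was checked against marker lists. The mean level of 14 general neuronal markers was 1.29 to 1.90 in REST cKO and 0.40 to 1.42 in WT, which overlap. Of these 14 markers, 12 had a positive difference, with a median difference of 0.64. Without overlap 3 were higher and 0 lower, or 1 and 0 for values centred on each library's median. Over all genes 8.03% were higher and 4.38% lower without overlap, or 5.55% and 7.30% for centred values. The mean level of 8 excitatory cortical markers was 1.21 to 1.43 in REST cKO and -0.19 to 0.89 in WT, and that of 8 upper layer markers 1.20 to 1.37 and 0.38 to 0.92. These means did not overlap, but the median levels of both lists did, and in each list 1 of 8 members (12.5%) was higher without overlap, or for centred values 1 excitatory and 0 upper layer markers. The mean levels of 8 markers of layer 5 projection neurons overlapped at -0.35 to 0.94 and 0.10 to 0.57, and of these markers 1 (Sox5) was higher and 2 (Parm1 and Tle4, 25%) lower without overlap. Markers of other cells were also present in every library. The 19 microglial markers averaged 2.69 to 2.82 in REST cKO and 2.73 to 2.99 in WT, above the general neuronal mean in each library. The 21 endothelial and mural markers averaged 1.47 to 2.43 and 1.31 to 1.87, above the excitatory mean in each library. Means of different lists do not give shares of cells. Astrocyte markers averaged 1.59 to 2.13 and 0.75 to 2.04. All 4 oligodendrocyte precursor markers (Cspg4, Olig1, Olig2 and Vcan) had negative differences, each with overlap, and their median of -1.04 was -1.27 relative to all genes, from -1.74 to -0.58 over 15 alternatives. Their mean level was -0.97 to 0.52 in REST cKO and -0.23 to 1.75 in WT. The 14 oligodendrocyte markers averaged 0.08 to 0.47 and -0.32 to 0.51, and the 6 inhibitory neuron markers -0.46 to 0.75 and -1.17 to 0.03. The part of these cell types in the results below was not tested. Because these are bulk samples, fewer cells of a type and less RNA per cell cannot be told apart.

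**Figure D1:**
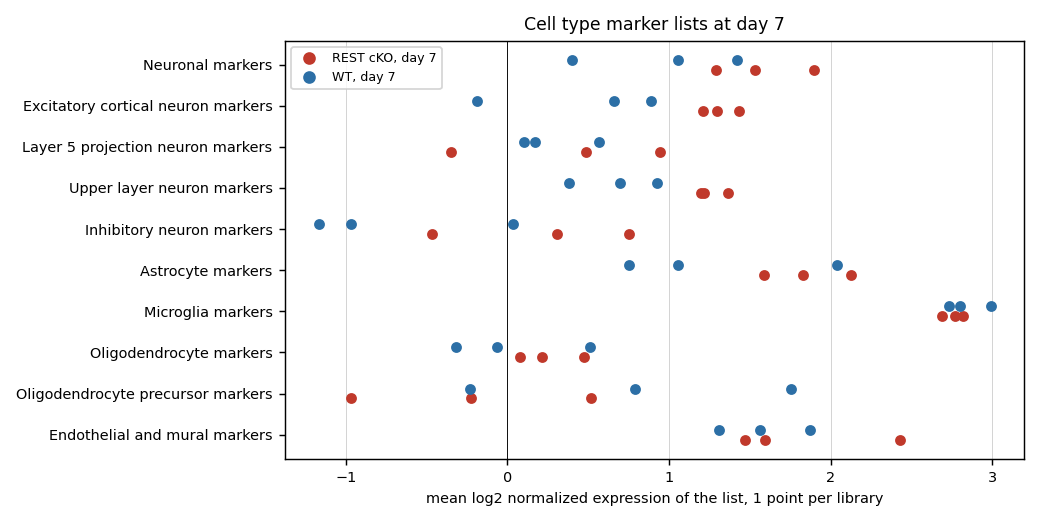
Mean log2 normalized expression of 10 cell type marker lists (x axis), with 1 point for each of the 6 libraries at day 7, REST cKO in red and WT in blue. The list means of excitatory and upper layer neuron markers do not overlap between the genotypes, although 1 of 8 members of each list was without overlap, while microglial markers sit between 2.69 and 2.99 in all 6 libraries.

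No gene passed an adjusted p of 0.1 in limma, which is 0% of the 9931 tested, and the smallest adjusted p was 0.109. At an unadjusted p under 0.05, 768 genes (7.73%) were higher and 220 (2.22%) were lower in REST cKO. Without overlap, 797 genes (8.03%) were higher and 435 (4.38%) lower. The median difference of all genes was 0.23 and 60.5% of genes had a positive difference, so gene groups are given below beside that median. The excess of higher genes was not seen after other scalings of the libraries. After quantile normalization the unadjusted split was 397 higher and 355 lower and the median -0.03. After centring each library on its median the split was 451 and 452, with a median of -0.08. Both scalings bring the libraries to a common level by design, so they cannot tell a technical shift from a real one. Centred values gave 551 genes (5.55%) higher and 725 (7.30%) lower without overlap, and the centred counts of each gene list are to be read against these shares, since the order turned for all genes.

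The difference depended on how strongly a gene was expressed. Genes with a mean under -1 over all libraries had a median difference of 0.58 and those with a mean from -1 to 0 one of 0.60. The median then declined to 0.34 for means from 0 to 1, to 0.11 from 1 to 2, and to -0.01 for the 1104 genes with a mean of at least 2. Among those most strongly expressed genes 4.08% were higher and 7.70% lower without overlap, the reverse of the order in the 641 weakest genes, 10.1% and 3.28%.

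Rest itself was lower in the REST cKO libraries. It was at -1.21, -0.33 and -0.97 in REST cKO and at 0.26, 2.30 and 2.74 in WT, without overlap. The difference was -2.28 ± 0.92 (SE), with an adjusted p of 0.401, and its values correlate with a component. The same difference was -1.61 at day 3, again without overlap, and -1.47 in sham, where the libraries overlapped.

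A list of 50 genes known as REST targets, of which 40 were measured, leaned to higher values in REST cKO. Of the 40, 10 were higher and 0 lower at an unadjusted p under 0.05 and 10 were higher and 0 lower without overlap, against 8.03% and 4.38% of all genes. The median difference was 0.93, or 0.70 above that of all genes, and ran from 0.55 to 0.93 above it over 15 alternative settings. The targets' median level was 0.20, and all genes with a mean from -1 to 0 and from 0 to 1 had median differences of 0.60 and 0.34. The neuronal markers given above had a positive median difference too, and their part in the list's difference was not tested. In batch 1 the list's median level was 0.81 in REST cKO library 2 and 0.52 and -0.14 in WT libraries 4 and 7. In batch 2 it was 1.61 in REST cKO library 13 and -0.51 in WT library 12. Of the members without overlap, 4 correlate with a component, Penk and Grin1 among them, and 6 are left when such genes are set aside.

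Among the targets that act at the presynaptic terminal, Cplx1, the complexin that clamps and triggers vesicle fusion, was at 1.22, 2.60 and -1.26 in REST cKO and at -2.97, -2.75 and -2.24 in WT. All WT libraries were near the low end of the scale, and the difference was 3.87 ± 1.29. Unc13a, which primes vesicles for release, was at 0.36, -0.19 and 1.23 against -1.09, -3.00 and -3.22, a difference of 3.03 ± 1.16. Cacna1a, the pore of the P/Q-type calcium channel that drives transmitter release, was at 0.94, 1.24 and 1.01 against -1.09, -2.97 and -2.32. Its REST cKO values were tightly grouped and all above WT, with a difference of 3.41 ± 1.13. Snap25, a SNARE protein of the terminal, was high in every library, at 3.64, 3.19 and 2.89 against 2.07, 2.96 and 1.52, and overlapped. Syp, the vesicle protein synaptophysin, was at 2.01, 2.26 and 1.50 against 0.65, 0.16 and 1.26, without overlap. The adjusted p was 0.281 or higher for each of these 5 genes. Of the targets with negative differences, the secretory granule genes Scg2 (-0.52) and Chga (-0.42), the potassium channel Kcnc1 (-0.95) and the synapsin Syn1 (-0.35) all overlapped.

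The same list was read in sham and at day 3. In sham its median difference was 0.82, with 6 members higher and 0 lower without overlap, and at day 3 it was -0.07, with 1 higher and 1 lower. Of all genes, 4.02% were higher and 3.85% lower without overlap in sham and 3.60% and 3.99% at day 3. The medians of all genes were 0.04 in sham and 0.05 at day 3. The sham and day 7 comparisons share no library, but cell type markers differed in sham too. Neuronal markers had a median difference of 1.10 there with 6 of 14 above WT without overlap, and astrocyte markers 1.11 with 4 of 15 above and 1 below. The medians were 1.10 for oligodendrocyte precursor, 0.58 for endothelial and mural and -0.45 for microglial markers, of which 7 of 19 were below WT without overlap. Their part in the sham values was not tested.

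**Figure D2:**
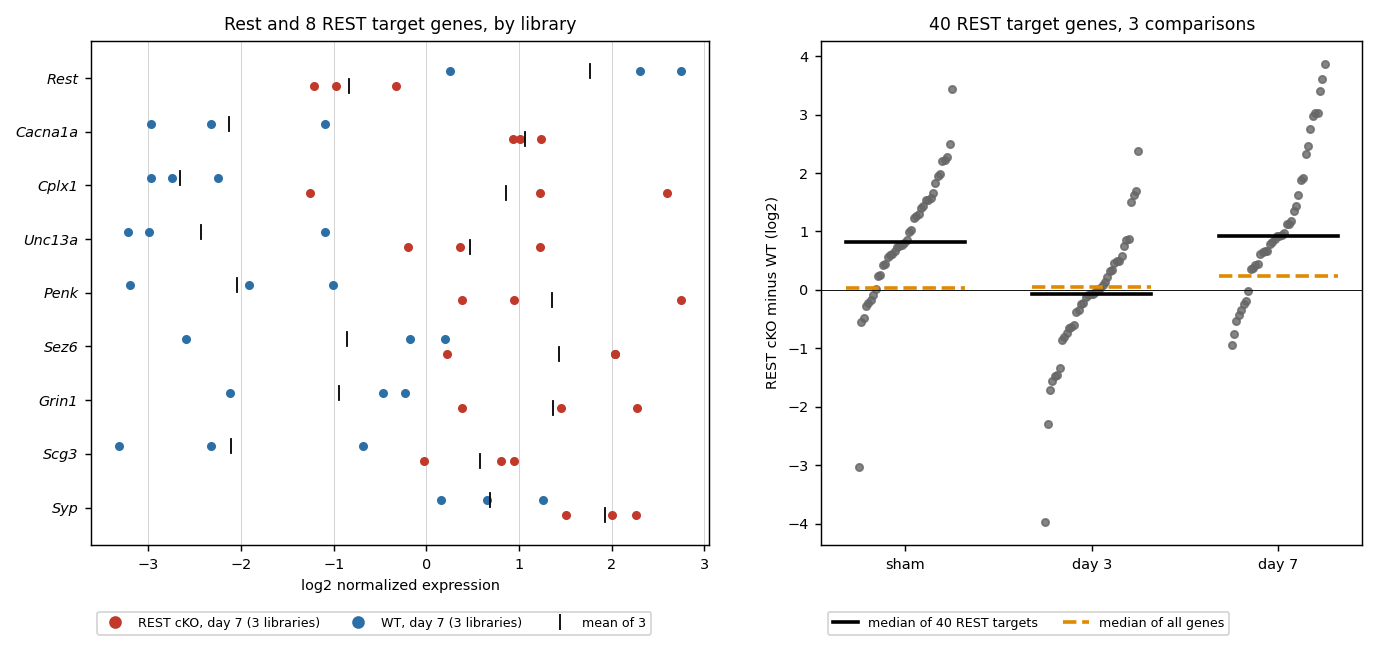
Left, log2 normalized expression (x axis) of Rest and of 8 REST targets without overlap at day 7, 1 point per library, REST cKO in red and WT in blue, with a bar at each mean of 3. Right, REST cKO minus WT (log2, y axis) of all 40 measured targets in sham, at day 3 and at day 7, with the median of the targets (solid, 0.82, -0.07 and 0.93) and of all 9931 genes (dashed).

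The RE1 itself was looked for in promoters, from 250 bases before to 50 after each RefSeq gene start in GRCm38.p6. A match was CAGCACC, any 2 bases, then GGACAG, on either strand, with at most 1 of the 13 fixed letters different. It occurs in 57 of 27025 RefSeq genes (0.211%). A promoter was found for 7837 of the measured genes (78.9%), under 80%, so a check over all measured genes is void and the matches are listed as a description. There were 19 measured genes with a match, 3 of them with all 13 letters. Those shown are the 3 exact matches, Dner, and 4 genes of synaptic transmission, to let the letters be compared. Capitals mark the 13 searched positions, and the 2 free bases lie between them.

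Dner: ttCAGCACCaaGGACAAgggc
Gria2: ttTAGCACCgcGGACAGcgct
Gad2: ggTAGCACCctGGACAGcgcg
Fam163b: gtCAGCACCagGGACAGttcc
Hrh3: ggCAGCACCacGGACAGcgcc
Osbp2: ttCAGCACCgcGGACAGcggc
Rph3a: gtCAGTACCacGGACAGcacc
Syn1: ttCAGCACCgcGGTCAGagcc

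Dner encodes a transmembrane Notch ligand of neurons. Its match lies at chr1:84696351-84696371 on the minus strand. Dner was at 2.87, 1.78 and 1.99 in REST cKO and at 1.74, -0.42 and -1.87 in WT, and was the only 1 of the 19 genes with a match that was without overlap at day 7, where 8.03% of all genes were higher and 4.38% lower, with a difference of 2.44 and an unadjusted p of 0.00467. Gria2, the AMPA receptor subunit that makes the channel impermeable to calcium, has its match at chr3:80802989-80803009 on the plus strand and a difference of 0.93 with overlap. Gad2, a GABA-synthesising enzyme, has its match at chr2:22622161-22622181 on the plus strand and a difference of 1.63 with overlap. The 3 genes with exact matches also overlapped, with differences of 1.22 for Fam163b (match at chr2:27142561-27142581, minus strand), -0.63 for the histamine receptor gene Hrh3 (chr2:180104574-180104594, plus strand) and -0.27 for the oxysterol-binding protein gene Osbp2 (chr11:3774791-3774811, plus strand). Rph3a, a vesicle protein that binds RAB3 (chr5:121009614-121009634, plus strand), and the vesicle protein gene Syn1 (chrX:20921130-20921150, minus strand) overlapped too, with differences of 0.42 and -0.35. Of all 19 genes, 13 had a positive difference and the median was 0.42, against 0.23 for all genes. The same genes had a median of 0.66 in sham and -0.32 at day 3. A match is a stretch of letters and says nothing about binding in these cells.

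Of 33 measured genes of the corepressors that REST recruits, 4 (12.1%) were higher and 0 lower without overlap, near the 8.03% and 4.38% of all genes, with a median of 0.32. Kdm1a, the histone demethylase of the CoREST complex, was at 2.23, 1.80 and 0.76 in REST cKO and at 0.29, -3.26 and -0.99 in WT, a difference of 3.14 ± 0.89. Rbbp4, a histone chaperone shared by several repressor complexes, was at 3.28, 1.89 and 2.39 against 0.26, -0.15 and 1.67, a difference of 2.07 ± 0.59. Eed, a core subunit of Polycomb repressive complex 2, was at 2.38, 1.45 and 0.90 against 0.66, 0.19 and -1.49. The adjusted p was 0.232 or higher for these genes, and for centred values 2 of the 33 were higher without overlap.

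Genes of neuronal signalling had positive medians, and their counts are to be read against the 8.03% higher and 4.38% lower of all genes. Glutamate receptors and postsynaptic density genes (40 measured) had a median of 0.89 with 8 higher and 0 lower without overlap, GABA and glycine receptors (19) a median of 1.08 with 5 and 0, and voltage-gated potassium channels (25) a median of 0.97 with 5 and 0. Neuropeptide and dense core vesicle genes (20) had a median of 0.89 with 5 and 0. Synaptic vesicle genes (65) had a median of 0.57 with 8 and 1, and calcium channel and calcium handling genes (38) a median of 0.32 with 7 and 0. Relative to all genes, the glutamate, GABA, potassium channel, neuropeptide and vesicle medians kept their sign over all 15 alternatives, while that of the calcium list ran from -0.04 to 0.23. For centred values the higher and lower counts were 6 and 1 for glutamate, 4 and 1 for GABA, 4 and 2 for potassium channel, 5 and 0 for neuropeptide, 6 and 2 for vesicle and 7 and 2 for calcium genes. The sham medians of these lists were 0.81, 0.63, 0.94, 1.16, 0.79 and 0.46 in the same order, and those at day 3 were -0.25, 0.19, -0.11, 0.17, -0.27 and -0.27. The potassium channel and neuropeptide lists had median levels of -0.13 and -0.09, and all genes with a mean from -1 to 0 had a median difference of 0.60 with 9.04% higher and 3.06% lower. Setting aside the genes that correlate with a component left 3 of the 8 glutamate genes, 1 of the 5 GABA genes, 3 of the 5 neuropeptide genes and 4 of the 7 calcium genes, and took none from the potassium channel and vesicle counts. The GABA median was then 0.48 in place of 1.08, which is not among the 15 alternatives.

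In the vesicle list, the clathrin adaptor Snap91 was at 2.88, 1.89 and 1.46 in REST cKO and at 1.38, 0.46 and -1.10 in WT. Syt1, the calcium sensor of fast release, was at 3.43, 3.34 and 2.84 against 2.36, 2.76 and 1.55. Both were without overlap, with differences of 1.89 ± 0.61 and 1.00 ± 0.45. Rab3c, a vesicle GTPase, was at 0.58, 1.47 and 0.14 against -3.38, -3.36 and -2.43. Bin1, a membrane-bending endocytic protein, was the single member below WT without overlap, at 1.66, 1.91 and 1.62 against 2.22, 2.83 and 2.25.

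Among postsynaptic genes, Nptn, an adhesion protein of the synapse, was at 2.56, 1.99 and 2.53 in REST cKO and at 0.97, 1.15 and 1.94 in WT, without overlap. The metabotropic receptor Grm7 and the NMDA receptor subunit Grin1 were higher without overlap by 3.63 and 2.32, and both correlate with a component. So do the GABA-A receptor subunits Gabra2 (2.91) and Gabra3 (2.96). Gabrb1 does not correlate with a component, and was at 2.62, 0.63 and 1.10 against -0.04, 0.52 and 0.53, without overlap and with an unadjusted p of 0.0752.

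For the channels, Dpp10, an auxiliary subunit of A-type potassium channels, had a difference of 3.07, with WT library 4 at 0.59 inside the REST cKO range of 0.16 to 2.18. Atp1b1, the beta subunit of the sodium pump, was at 3.54, 3.24 and 2.69 against 2.20, 1.02 and 2.03, a difference of 1.53 ± 0.43. It was the only 1 of 15 sodium channel and pump genes (6.67%) without overlap, against 8.03% higher and 4.38% lower of all genes. Cacna2d1, the auxiliary channel subunit that binds gabapentin, had a difference of 5.03 with an adjusted p of 0.109, and correlates with a component. Pcsk2, a convertase that cuts neuropeptide precursors, was at 2.40, 1.21 and 2.01 against -0.46, -0.32 and 0.78. The peptide genes Penk (3.61) and Cck (1.52) were also without overlap, and both correlate with a component.

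Genes of axon growth and transport were mixed. In the axon guidance list (47 measured) 7 (14.9%) were higher and 3 (6.38%) lower without overlap, against 8.03% and 4.38% of all genes, and 3 were higher and 5 lower for centred values, for which 5.55% of all genes were higher and 7.30% lower. Its median of 0.50 was 0.27 above all genes, but 0.09 below them with a term for sex. The netrin receptors Unc5b, at 1.28, 1.34 and -0.30 in REST cKO and -3.14, -0.59 and -2.50 in WT, and Unc5c, at 1.95, -0.12 and -0.16 against -3.14, -2.98 and -0.83, were higher without overlap. So were the semaphorins Sema3c (2.91) and Sema6d (2.49). Nrp2, a semaphorin co-receptor, was below WT without overlap, at 1.84, 1.57 and 1.53 against 2.15, 2.74 and 1.98, as were the Nogo receptor homologue Rtn4rl1 (-1.05) and Crmp1 (-0.89), which acts downstream of semaphorins.

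Of 44 kinesin and dynein motor genes, 7 (15.9%) were higher and 2 (4.55%) lower without overlap, against 8.03% and 4.38% of all genes, and 6 and 5 for centred values, with a median of 0.33. Kif1b, which carries synaptic vesicle precursors and mitochondria down the axon, was at 2.62, 3.65 and 2.56 in REST cKO and at 1.85, 0.47 and 1.00 in WT, a difference of 2.00 ± 0.58. Kif2a, a kinesin that takes microtubules apart, was at 0.42, 1.78 and 1.23 against -3.48, -3.15 and -1.24, a difference of 4.08 ± 1.08, and Kif5c, a conventional kinesin, at 2.26, 2.32 and 2.07 against 1.54, 1.66 and 1.10. Among 53 genes of actin regulation 4 (7.55%) were higher and 2 (3.77%) lower, near the shares of all genes, and 1 higher and 7 lower for centred values, including at the deposited scale the profilins Pfn1 (1.13) and Pfn2 (1.49) above WT and the membrane-actin linker Msn (-0.74) below it. Tubulins and microtubule proteins (40) had a median of 0.61, against 0.87 in sham with 8 higher there against 4.02% of all genes, and at day 7 1 was higher without overlap, Map4, at 2.16, 2.43 and 1.93 against 1.87, 1.13 and 1.22.

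Of the signalling lists, PI3K, AKT and mTOR genes (40 measured) had a median of 0.58, which was 0.35 above all genes and 0.20 above them with a term for sex, with 9 (22.5%) higher and 3 (7.5%) lower without overlap, against 8.03% and 4.38% of all genes. Igf1r, the receptor for insulin-like growth factor, was at 2.29, 2.47 and 2.64 in REST cKO and at 1.62, 1.81 and 1.15 in WT. Its lowest REST cKO value was 2.29, and the difference was 1.00 ± 0.42. Tsc2, a brake on mTOR complex 1, was at 2.00, 1.65 and 2.05 against 0.76, -0.01 and -0.92, and Rptor, the scaffold of that complex, at 2.30, 1.23 and 1.69 against 0.41, 0.50 and 0.73. Of the 9 higher members, 5 are left without the genes that correlate with a component. Inpp5d, a phosphatase of blood cells and microglia that removes the PI3K product, was below WT without overlap, at 1.65, 1.66 and 2.30 against 2.60, 2.79 and 3.00. In sham the list had 0 genes higher and 2 lower without overlap, against 4.02% and 3.85% of all genes.

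Cyclic AMP and G protein genes (80 measured) had 13 (16.2%) higher and 4 (5%) lower without overlap, against 8.03% and 4.38% of all genes and 9 and 7 for centred values, but a median of 0.20, just under that of all genes and 0.10 above it after quantile normalization. Creb1, the factor that cyclic AMP signalling activates, was at 2.24, 2.74 and 2.64 in REST cKO and at 1.80, -0.15 and 1.42 in WT, a difference of 1.56 ± 0.52. Gnb1, a G protein beta subunit, was below WT, at 1.33, 2.05 and 2.30 against 2.67, 2.66 and 2.91. In the MAP kinase cascade (62) 6 were higher and 2 lower, near the shares of all genes: the phosphatase Dusp14 was at 2.97, 1.82 and 0.59 against 0.14, -0.25 and -1.47, a difference of 2.44 ± 0.63, and the neuronal kinase Mapk10, or JNK3, at 1.30, 2.05 and 1.10 against -3.32, -0.40 and -1.16, a difference of 3.26 ± 0.90. Dusp2, a phosphatase induced in immune cells, was below WT by -2.31. For Wnt and Notch genes (38) 3 were higher and 1 lower, at or under those shares: the Wnt co-receptor Lrp6, at 2.14, 2.27 and 2.02 against 0.48, -0.10 and 0.55, had one of the cleaner separations, with a difference of 1.88 ± 0.53. TGF beta and BMP genes (28) had 5 (17.9%) higher and 1 (3.57%) lower, 3 and 2 for centred values, and 2 of the 5 were left without genes that correlate with a component. The ubiquitin ligase Smurf1, which degrades SMAD proteins, was at 1.95, 1.08 and 2.29 against -0.51, -3.29 and -2.02, and Ski, which represses SMAD targets, was below WT at 0.63, 1.69 and 2.18 against 2.55, 2.64 and 3.28. Trophic factor and receptor genes (33) had 1 higher, Igf1r, and 0 lower.

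Extracellular matrix, integrin and adhesion genes (62 measured) had a median of 0.66 with 9 (14.5%) higher and 2 (3.23%) lower without overlap, against 8.03% and 4.38% of all genes. Members of connective tissue and vessel walls were among them: the fibrillar collagen Col3a1 was at 2.02, 0.99 and 1.60 in REST cKO and at -3.20, -0.66 and -1.99 in WT, and the basement membrane collagen Col4a2 at 1.85, 1.64 and 1.10 against 0.18, -0.48 and -1.11. Neuronal adhesion genes went both ways. Nrcam was at 0.25, 1.14 and 1.57 against -0.81, -3.13 and -2.37, while Ntm, or neurotrimin, was below WT at 0.86, 0.35 and 1.27 against 2.18, 2.43 and 2.49. The list was also above all genes in sham, with a median of 0.55 and again 9 higher and 2 lower, where 4.02% and 3.85% of all genes were, and at day 3 the median was 0.04 with 1 higher and 2 lower.

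For genes of protein synthesis the background at their own level matters. Cytoplasmic ribosomal proteins (83 measured) had 2 higher and 11 lower without overlap, against 8.03% and 4.38% of all genes, and a median of -0.09, or 0.31 below that of all genes and 0.10 to 0.36 below it over 15 alternatives. Their median level was 2.80, and all genes with a mean of at least 2 had a median difference of -0.01 with 4.08% higher and 7.70% lower, beside 2.41% and 13.3% of the ribosomal genes. For centred values 0 were higher and 19 lower, against 5.55% and 7.30% of all genes. The differences ran from -1.51 to 1.10. Rpl13a was at 3.55, 3.38 and 3.59 in REST cKO and at 3.86, 3.77 and 3.88 in WT, a difference of -0.36 ± 0.14. Rps13 was at 1.94, 2.25 and 2.72 against 2.88, 3.20 and 2.78. Rpl9 and Rpl41 were above WT without overlap, by 0.45 and 0.39. Ribosomal protein genes have many near-identical pseudogenes, which can share their reads. In sham, where 4.02% of all genes were higher and 3.85% lower, 2 were higher and 8 lower, and at day 3, where 3.60% and 3.99% were, 4 were higher and 10 lower without overlap, with medians of -0.15 and -0.09.

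Translation factors (67) had 2 (2.99%) higher and 7 (10.4%) lower without overlap. Their median level was 1.29, and of all genes with a mean from 1 to 2 6.75% were higher and 4.87% lower. Eef2, the elongation factor that moves the ribosome along, was at 2.52, 2.59 and 2.78 in REST cKO and at 3.09, 3.11 and 3.42 in WT, a difference of -0.59 ± 0.19 with an adjusted p of 0.269. Eif3b was at 0.86, -0.51 and 1.04 against 2.05, 2.16 and 1.45, and Eif6, which keeps the ribosomal subunits apart, at 0.54, 1.22 and 0.49 against 1.81, 2.14 and 1.64. Eef1a2, the elongation factor of neurons and muscle, went the other way, at 1.32, 2.13 and 1.74 against 1.07, 0.78 and -0.29. Splicing factors (93) had 6 (6.45%) higher and 3 (3.23%) lower, against 8.03% and 4.38% of all genes, and a median of -0.00. The neuronal regulators Celf1 (1.97) and Nova1 (2.59) had positive differences with overlap, and Hnrnpr was higher without it, at 2.56, 3.10 and 2.71 against -0.38, 1.77 and 1.54. For centred values 2 splicing genes were higher and 9 lower, where all genes had 5.55% and 7.30%.

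Genes of the respiratory chain had medians near 0 and so below that of all genes, and their counts stand against 8.03% higher and 4.38% lower of all genes, or 5.55% and 7.30% for centred values. Complex I (45 measured) had 2 higher and 2 lower without overlap and a median of -0.04, and complexes II to V (44) had 2 and 2, or 1 and 5 for centred values, and the same median of -0.04. Relative to all genes these medians were -0.26 and -0.27 and stayed negative over the 15 alternatives. The median levels of both lists were 1.74 and 2.18, and all genes with a mean from 1 to 2 and of at least 2 had median differences of 0.11 and -0.01. Cox5a, a subunit of cytochrome oxidase, was at 2.70, 2.87 and 2.75 in REST cKO and at 1.68, 1.86 and 1.81 in WT, a difference of 1.07 ± 0.33 with little spread in either group. The mitochondrial ribosome (62) had 5 (8.06%) higher and 4 (6.45%) lower, near those shares, and 3 and 4 for centred values. Mrpl38 (4.12) and Mrps14 (-2.65) were among them. Glycolysis genes (26) had 3 higher and 0 lower, among them Eno2, the neuronal enolase, at 3.25, 2.69 and 2.31 against 1.17, 2.27 and 0.69, and Slc16a7, the neuronal monocarboxylate transporter (3.66).

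Among quality control genes, the proteasome and ubiquitin list (59) had 1 (1.69%) higher and 4 (6.78%) lower without overlap, against 8.03% and 4.38% of all genes, with Psmb1 at 1.24, 1.39 and 1.34 in REST cKO and 2.39, 2.73 and 1.76 in WT. Chaperones (42) had 5 (11.9%) higher and 2 (4.76%) lower, and 2 and 2 for centred values. Dnaja1, a partner of HSP70, was at 2.66, 3.51 and 2.48 against 2.29, 1.76 and 1.33, and the chaperonin subunit Cct4 at 2.94, 1.58 and 2.45 against 1.56, 0.56 and 1.40. Xbp1, the factor of the unfolded protein response on which antibody-secreting cells depend, was below WT at 1.92, 2.04 and 1.94 against 2.52, 2.93 and 2.26. Lysosome and autophagy genes (53) had 2 higher, Atp6v1h and Lamp2, and 2 lower, Psap and Ctsb, 3.77% each way. The last of these, the protease cathepsin B, was at 3.04, 3.28 and 3.49 against 3.60, 3.50 and 3.70.

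Immune and immediate early lists had negative medians. Interferon, antigen presentation and complement genes (58) had 4 (6.9%) higher and 5 (8.62%) lower without overlap, against 8.03% and 4.38% of all genes, and a median of -0.10. For centred values they had 3 higher and 8 lower, against 5.55% and 7.30%. Immediate early genes (24) had 1 (4.17%) and 2 (8.33%) and a median of -0.33. The chemokine Ccl4 was at 0.61, -0.18 and 0.44 in REST cKO and at 1.98, 1.11 and 1.76 in WT, and Il1b, or interleukin 1 beta, at 1.20, 1.26 and 1.35 against 1.65, 2.15 and 1.87. H2-Eb1 and Cd74, of antigen presentation by class II molecules, were below WT by -0.36 and -0.38 without overlap. Tlr3 (3.86, correlating with a component), Ifih1 (3.49) and Ifnar1 (2.57), which sense viral RNA or interferon, were above it. The AP-1 gene Jund was at 1.29, 0.87 and 1.29 against 1.71, 1.76 and 2.03, and Egr2 at -0.11, -0.56 and -0.53 against 1.29, 2.35 and 0.22. Of 19 microglial markers 1 was higher, the integrin Itgam (0.70), and 0 were lower without overlap, and in sham 0 were higher and 7 lower, against 4.02% and 3.85% of all genes.

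The remaining lists are given against the same 8.03% higher and 4.38% lower of all genes, or 5.55% and 7.30% for centred values. Cell cycle and DNA replication genes (42) had 6 (14.3%) higher and 3 (7.14%) lower without overlap, and 4 and 7 for centred values. Ccnd2, a D-type cyclin, was below WT at 2.50, 1.73 and 1.52 against 3.11, 2.52 and 3.89. Of 40 apoptosis genes 2 were higher and 0 lower, Pmaip1, which encodes the death-promoting protein NOXA, at 2.44, 2.15 and 0.49 against -0.07, -0.04 and -1.89, and Xiap, a caspase inhibitor, at 2.99, 2.74 and 2.68 against 1.33, 2.27 and 2.15. Lipid synthesis genes (34) had 2 higher, both correlating with a component, Fasn (2.70) among them, and 2 lower. Chromatin modifiers (92) had 6 higher and 5 lower, and 4 and 9 for centred values, among them the deacetylases Hdac11 (2.71) and Hdac3 (2.48) above WT and the SWI/SNF subunit Smarcb1 (-2.91) below it. Circadian clock genes (18) had 1 higher and 0 lower.

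**Figure D3:**
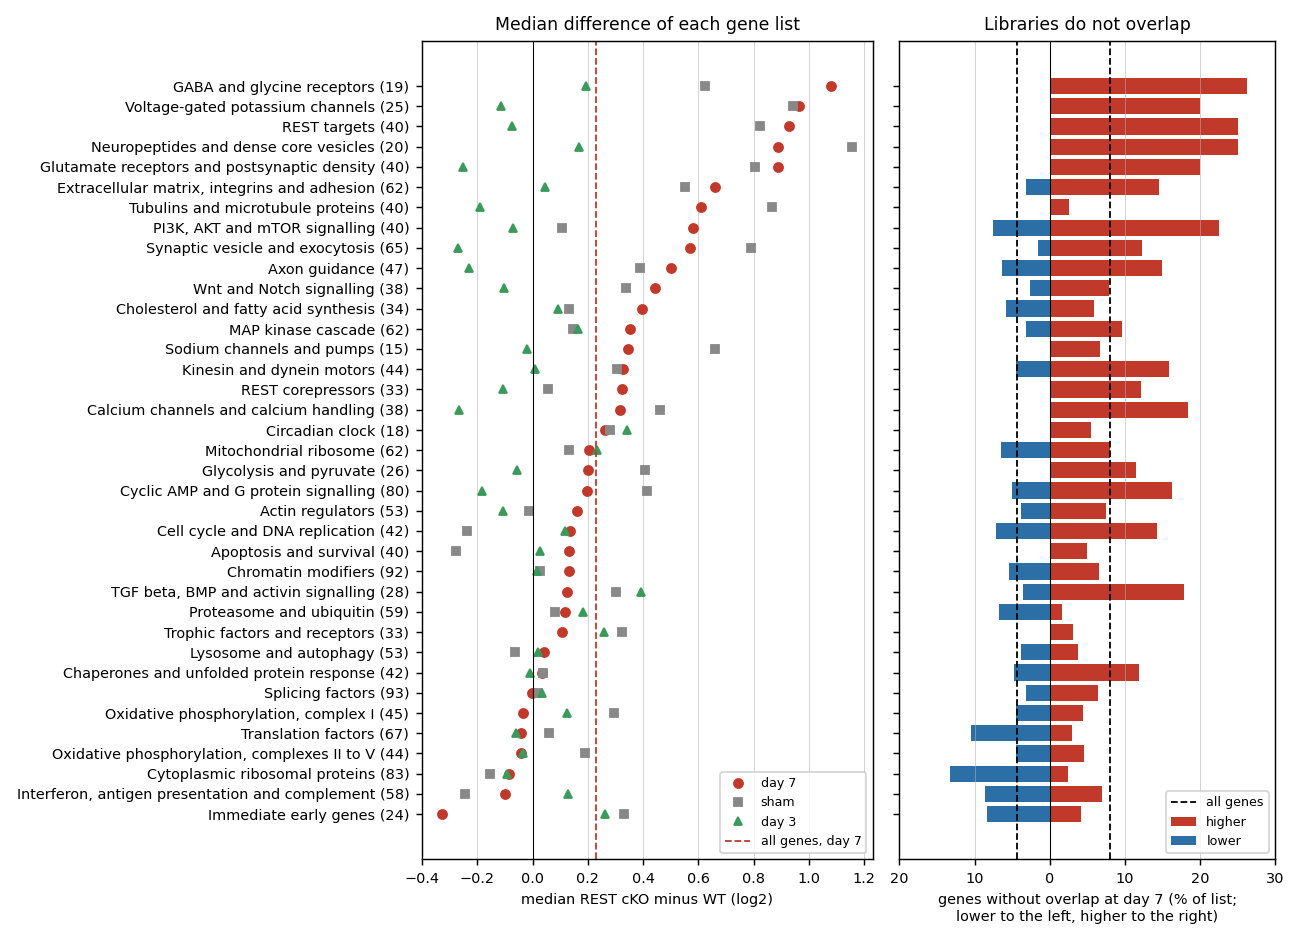
Left, the median REST cKO minus WT difference (log2, x axis) of each of 37 gene lists at day 7 (circles), in sham (squares) and at day 3 (triangles), with the number of measured genes in brackets and the day 7 median of all genes dashed at 0.23. Right, the percentage of each list without overlap at day 7, lower to the left in blue and higher to the right in red, with dashed lines at the 4.38% and 8.03% of all genes. Receptor, channel, peptide and REST target lists are at the top, and ribosomal, immune and immediate early lists at the bottom.

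The genes with the smallest p among those without overlap, expressed on average at 0 or above, autosomal and not correlating with a component, were 466 above WT and 314 below, of which the first 15 in each direction are described. Above WT, Vsnl1, a neuronal calcium sensor protein, was at 2.79, 2.77 and 1.34 in REST cKO and at -0.10, -0.27 and -2.05 in WT, a difference of 3.35 ± 0.68 with an adjusted p of 0.109. Vsnl1 was also higher without overlap in sham, by 2.15. Dnajc6, or auxilin, which strips clathrin from endocytosed vesicles, was at 2.19, 2.18 and 1.56 against -3.35, -0.57 and -1.62. Pip5k1c, the main kinase that makes the lipid PIP2 at the presynaptic membrane, was at 2.79, 2.33 and 1.67 against -3.03, -0.60 and -1.89. The WT values of both spread over more than 2 log2 units, whereas Atp6v1h, a subunit of the proton pump that fills vesicles and acidifies lysosomes, was more even, at 1.86, 1.60 and 1.96 against -0.57, -0.19 and -1.26. Dgke, a diacylglycerol kinase, was at 2.10, 1.07 and 1.57 against -0.35, -0.10 and -1.14 and was likewise higher in sham (1.46).

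Nuclear and other proteins made up the rest of the 15. Phf14, a PHD finger protein, was at 2.64, 3.86 and 2.40 in REST cKO and at 0.61, 0.62 and 1.21 in WT, a difference of 2.49 ± 0.55. Peg3, an imprinted zinc finger gene, was at 3.02, 2.67 and 2.47 against 0.75, 0.45 and -1.52. Lgals8, the galectin that marks damaged endosomes, was at 1.65, 1.76 and 2.11 against -0.34, -0.15 and -0.19 with little spread in either group. Fam210a, a mitochondrial protein, was at 2.05, 2.85 and 3.11 against -0.43, -0.43 and 1.33, with an adjusted p of 0.109. Akap7, an anchor of protein kinase A, had a difference of 3.87, but was below WT without overlap at day 3 (-0.90). The transcription-related genes Zfp318 (4.59), Zic5 (3.78) and Scaf4 (4.11), with Tmem159 (3.68) and AU022252 (3.86), followed. For the 15 genes the adjusted p ran up to 0.169.

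Below WT, the 3 genes with the smallest p were those of secreted antibody. Igkc, the immunoglobulin kappa constant region, was at 3.83, 3.96 and 3.91 in REST cKO and at 4.63, 4.74 and 4.77 in WT. It had the smallest p of all 9931 genes, with a difference of -0.79 ± 0.15 and an adjusted p of 0.109. Igha, the constant region of IgA, was at 3.31, 4.13 and 3.67 against 4.52, 4.34 and 4.79, a difference of -0.82 ± 0.17. Jchain, which joins IgA and IgM monomers, was at 3.08, 3.16 and 3.47 against 3.72, 4.22 and 4.56. Mzb1, a chaperone of antibody-secreting cells, was at 0.73, 2.15 and 1.55 against 2.75, 3.00 and 2.42, and Ly6c2, a surface protein of monocytes and plasma cells, at 1.18, 2.43 and 1.91 against 3.55, 3.26 and 2.64. The source of these transcripts in the libraries was not tested.

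Grouped after these values were seen, the table holds 49 genes that are annotated as immunoglobulin genes or are Jchain or Mzb1. Of these, 37 had a negative difference, 13 were below and 2 above WT without overlap, beside 4.38% and 8.03% of all genes, and the median was -0.68. The variable segments share sequence, so their reads may be split among near-identical genes. Igkc passed an adjusted p of 0.1 in some alternatives, 0.0271 without the components and 0.0836 with a term for batch, and its adjusted p ran from 0.000667 to 0.502 over 15 alternatives. Its range in the other 19 libraries was 3.75 to 4.88, and 1 REST cKO library at day 3, at 3.75, lay below all 3 at day 7. In sham Igha was lower in REST cKO without overlap, at 3.26 to 3.62 against 3.93 to 4.53, while Igkc, Jchain and Mzb1 overlapped. At day 1 the 2 REST cKO libraries lay below the 3 WT libraries for Igkc, Igha and Jchain. The values were 4.47 and 4.54 against 4.61 to 4.88 for Igkc and 4.21 and 4.32 against 4.35 to 4.50 for Igha. For Jchain they were 3.31 and 3.40 against 3.81 to 4.03. Mzb1 overlapped at day 1, at 2.24 and 3.14 against 2.63 to 3.10. The share of all genes without overlap at day 1 was not computed. At day 3 Igha (-0.25) and Mzb1 (-1.14, at 1.84 to 2.39 against 2.92 to 3.66) were lower without overlap. Igkc (-0.23) and Jchain (-0.03) overlapped at day 3. Of all genes, 3.85% were lower without overlap in sham and 3.99% at day 3. The mean levels of the microglial and endothelial lists, as given above, overlapped at day 7, and 1 microglial marker was higher without overlap. No list of B cell or plasma cell markers was read, and the part of any cell type here was not tested.

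**Figure D4:**
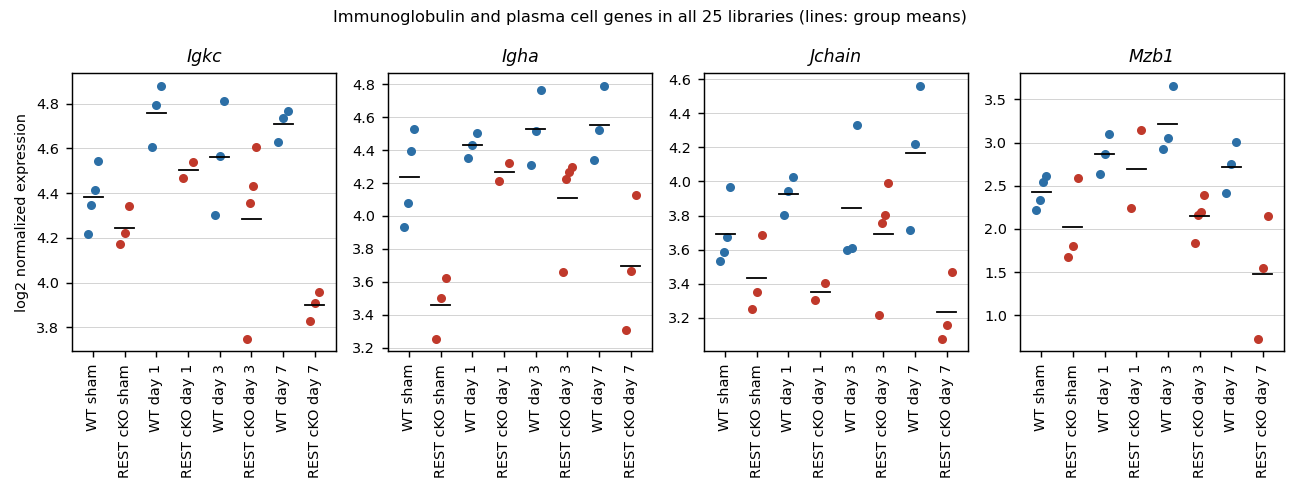
Log2 normalized expression (y axis) of Igkc, Igha, Jchain and Mzb1 in all 25 libraries by group, REST cKO in red and WT in blue, 1 point per library with lines at group means. For each of the 4 genes the 3 REST cKO libraries at day 7 lie below the 3 WT libraries at day 7.

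Of the other lower genes, Slirp, which stabilises mitochondrial mRNA, was at -0.01, -0.59 and 1.42 in REST cKO and at 1.95, 2.52 and 3.44 in WT, a difference of -2.38 ± 0.55. Aurkaip1, a mitochondrial ribosomal protein, was at -2.74, -2.80 and 0.63 against 2.33, 2.98 and 1.46. Ran, the GTPase of nuclear transport, was at 0.62, 1.44 and 1.41 against 2.73, 2.35 and 3.10, a difference of -1.58 ± 0.40. Ireb2, an iron regulatory protein, had a difference of -3.73 and Wiz, a zinc finger partner of histone methyltransferases, one of -3.21. Wiz was above WT without overlap in sham (1.69) and at day 3 (2.66).

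Lipa, the lysosomal acid lipase that frees cholesterol, was at -0.42, -0.30 and 0.01 in REST cKO and at 1.69, 2.53 and 2.07 in WT, a difference of -2.45 ± 0.66. Abca1, which exports cholesterol, was at 0.14, 1.76 and 2.45 against 2.91, 2.59 and 3.70. Cap2, a cyclase-associated actin regulator, was at -3.04, -1.98 and -0.66 against 1.63, 2.50 and 1.97. Hal (-3.97), which breaks down histidine, and the zinc finger gene Zfp493 (-3.23) completed the 15.

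**Figure D5:**
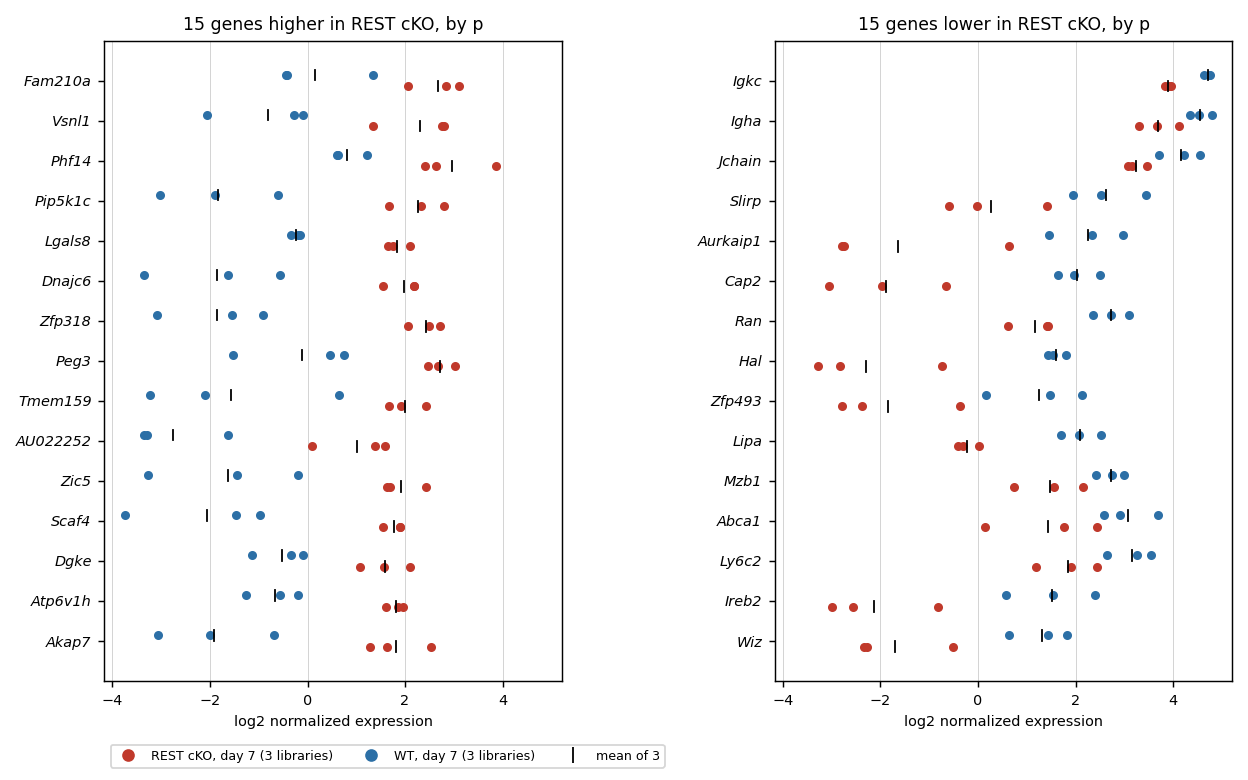
Log2 normalized expression (x axis) of the 15 genes above WT (left) and the 15 below WT (right) with the smallest p at day 7, ordered by p, 1 point per library, REST cKO in red and WT in blue, with a bar at each mean of 3. The immunoglobulin genes at the top right are high in all 6 libraries and tightly spread, while most other genes have libraries of 1 genotype near the low end of the scale.

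The day 7 differences were set beside those of sham, from other libraries. The interaction, the difference at day 7 minus that in sham, passed an adjusted p of 0.1 in limma for 2 genes (0.0201% of 9931), with 0 under a term for batch, for sex or without the components. Rxrb, a retinoid X receptor, was at 1.93, 1.96 and 1.16 in REST cKO and at -3.55, -3.24 and -2.68 in WT at day 7, a difference of 5.12 ± 1.07. In sham it ran from -3.53 to -0.46 in REST cKO and from -0.57 to 1.84 in WT, a difference of -3.71 with overlap. Its mean over all libraries was -0.33. The WT values at day 7 and the lower REST cKO values in sham were near the low end of the scale. The interaction was 8.83 with an adjusted p of 0.0780. Phf14 had an interaction of 4.39 with an adjusted p of 0.0780. In sham its difference was -1.90, with overlap.

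Other genes with a small interaction p were not called. Slc17a5, the lysosomal sialic acid transporter, was above WT at day 7 by 2.87 and below it in sham by -4.30, both without overlap, an interaction of 7.17 with an adjusted p of 0.136. Vav2, an exchange factor for small GTPases, was above WT by 2.15 at day 7 and below it by -2.35 in sham, and Ntm below it by -1.58 at day 7 and above it by 1.66 in sham. For Fam210a (3.94) and N4bp2l2 (4.84) on one side, and Cap2 (-6.33), Tle1 (-5.22), Nceh1 (-6.16) and Wiz (-4.90) on the other, the adjusted p of the interaction was 0.1797 or higher.

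The genes without overlap at day 7 were read in the other comparisons. Of the 797 above WT, 49 (6.15%) were also above it without overlap in sham, against 4.02% of all genes, and 31 (3.89%) at day 3, against 3.60%. A positive difference was found for 58.7% of them in sham and 52.8% at day 3, against 51.8% and 52.4% of all genes. Of the 435 below WT, 14 (3.22%) were also below it without overlap in sham, against 3.85%, and 16 (3.68%) at day 3, against 3.99%. A negative difference was found for 54.5% of them in sham and 44.4% at day 3, where 51.8% and 52.4% of all genes had a positive difference.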

How the data were processed

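RNA-seq values of sorted sensorimotor cortex neurons were compared between 3 REST cKO and 3 WT libraries at day 7 after SCI, grouped by the labels' genotype, treatment and day. The authors deposited log2 normalized expression: per the labels and the study's methods, reads were aligned to mm10 with STAR, quantified with Salmon, summed per gene, scaled with DESeq2 and corrected for unwanted variation, and the sequencing components were regressed out. The table also holds the authors' own fold changes and p-values, which were not used. Of 9955 rows, 24 (0.241%) had no symbol and were left out. Read totals of single libraries are not in the table and the study gives an average depth only, so no counting error could be set per library, and the errors come from replicate libraries alone, which the labels do not tie to named animals.

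The model was a limma fit (version 3.58.1, R 4.3.3) of all 25 libraries, whose terms were the 8 group means and both components (residual degrees of freedom 15), empirical Bayes moderation with a trend, and Benjamini-Hochberg adjustment over 9931 genes at 0.1. On simulated data with 200 of 9931 genes changed at day 7, 1.5%, 14% and 48.5% were recovered for log2 differences of 1, 2 and 3. With 3 against 3 libraries an exact two-sided permutation test cannot go below 0.1. Genes were named by rule: Rest and sex-linked genes, the 15 above and 15 below WT with the smallest p among autosomal genes without overlap, with a mean of at least 0 and not correlating with a component (absolute r at most 1e-05), up to 4 members with the smallest p per list with a mean of at least -1, up to 5 interaction genes per direction with a mean of at least 0. List members without overlap, RE1 matches, immunoglobulin genes and Rxrb were added after their values were seen. Lists, rules and tests were chosen with earlier results of these data known. Positions and gene classes are from GENCODE M21 (GRCm38), promoters from RefSeq (GRCm38.p6). Alternatives were no components, terms for batch, sex or the share of values under -2, only the 6 libraries, library weights, a mean of at least 0, no trend, quantile normalization, median centring, leaving out the genes that correlate with a component, a threshold of 0.05, and leaving out each library. Tables and figures were made with Python 3.11.15, pandas 2.3.3, numpy 2.4.6 and matplotlib 3.10.9. Some list members are not reported here.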

Additional observations from a re-analysis of the deposited data

Results flagged for a closer look

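The genotype difference of 2 genes differed between day 7 and sham by the interaction test in limma. For Rxrb the difference at day 7 minus that in sham was 8.83 on the log2 scale, with an adjusted p of 0.0780. The WT values of Rxrb at day 7, from -3.55 to -2.68, were near the low end of the scale. For Phf14 it was 4.39, with the same adjusted p of 0.0780. Both genes were above WT at day 7 and had a negative difference in sham, where the libraries of the genotypes overlapped. With 3 libraries in each group at day 7, no single library was tested as standing apart from its group.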

How the results depend on the processing

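The count of genes past an adjusted p of 0.1 at day 7, 0 in the reported fit, came to 1 when the components were dropped, 2 when batch was added, 15 when the share of low values (under -2) in a library was added, 1 with only the 6 libraries, with or without the components, 5 among genes with a mean of at least 0, and 2 after median centring. It was 0 to 21 when a library was left out: 2 without REST cKO library 13, 21 without WT library 4 and 9 without WT library 7. The count of 2 interaction genes was 0 at a threshold of 0.05, with batch or sex as a further term or the components dropped, among genes with a mean of at least 0 and after centring, 4 with library weights, 4 without the trend and 1 after quantile normalization, and 0 to 6 when a library was left out. At an unadjusted p under 0.05 the 768 higher genes were 469 with a mean of at least 0, 397 after quantile normalization and 451 after centring, and 584 to 883 when a library was left out. The 220 lower genes were 355 and 452 after those scalings and 150 to 292 without a library. Genes without overlap were 516 higher with a mean of at least 0, and the lower were 708 after quantile normalization and 725 after centring. When a library was left out, which leaves 2 in a group, they were 1227 to 1559 higher and 752 to 901 lower. Relative to all genes, the median of oligodendrocyte markers changed sign with a term for sex (0.0671). That of excitatory markers ran from -0.0371 to 0.7185 when a library was left out, the lowest without WT library 7. Several other lists with medians near that of all genes also changed sign, as their ranges over the alternatives cross 0. Of 156 differences of single genes under 15 alternatives, 31 values moved past the adjusted threshold, where the cause was not tested. None changed sign, which the choice of genes without overlap or with the smallest p largely fixes. No paired analysis was possible because the labels do not tie the libraries of the genotypes into pairs. Batch, shared by some libraries, was fitted as a term instead. Precision is limited by 3 libraries a group.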
